A study of Homo sapiens with 6 samples.

Results

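The 8 genes described here are long non-coding RNAs, transcripts of RNA polymerase II that are not translated: MALAT1, NEAT1, PVT1, NORAD, MIR22HG, MIR17HG, DANCR and CYTOR. They were taken by name from the 28395 gene IDs of the series, after the IDs had been matched to symbols. All 8 had counts, and all 8 were among the 16381 genes that passed the filter on low counts. The cells were A375, an established line from a human melanoma with mutant, active BRAF. The 3 groups had 2 libraries each: vehicle (0.01% DMSO), 1 µM palbociclib, which blocks the cell cycle kinases CDK4 and CDK6, and 500 nM GSK3326595, which blocks PRMT5, an enzyme that methylates arginine residues of proteins. Treatment lasted 72 h in all groups, and the control cells received only the solvent. The titles abbreviate the inhibitors as PD991 and CTX. Ribosomal RNA had been depleted and total RNA was the starting material, so transcripts without a poly(A) tail could also be sampled. The labels do not say whether the replicates were separate cultures, so the p-values below measure the spread between libraries, which may be technical.

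MALAT1 resides in nuclear speckles, bodies rich in splicing factors. NEAT1 is the scaffold of the paraspeckle, another nuclear body: its long form is needed to assemble it, while its short form is not sufficient. NORAD is a cytoplasmic RNA that binds PUMILIO proteins, repressors of mRNAs. MIR17HG is the host transcript from which the miR-17-92 cluster of microRNAs is processed, a known target of MYC and E2F factors, and MIR22HG is the host of miR-22. PVT1 is the neighbour of MYC and is often co-amplified with it, DANCR is a small nucleolar RNA host gene known as an inhibitor of differentiation, and CYTOR is a cytoplasmic RNA linked to proliferation and migration in tumours.

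The sequences that define the host genes and the nuclear and cytoplasmic RNAs are shown first, since later values refer to them. The mature microRNAs of the 2 host genes come from RefSeq (GRCh38.p14), 5′ to 3′, with the seed (bases 2 to 8) in capitals. MIR17HG carries 6 of them on chromosome 13, between 91350618 and 91351382 on the plus strand, and they fall into 4 seeds. miR-17-5p and miR-20a-5p share a seed, as do miR-19a-3p and miR-19b-3p. The microRNA of MIR22HG lies on chromosome 17 at 1713914 to 1713935, on the minus strand.
miR-17-5p: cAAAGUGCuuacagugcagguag
miR-20a-5p: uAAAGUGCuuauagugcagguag
miR-18a-5p: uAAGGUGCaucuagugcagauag
miR-19a-3p: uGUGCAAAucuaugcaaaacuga
miR-19b-3p: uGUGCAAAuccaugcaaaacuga
miR-92a-3p: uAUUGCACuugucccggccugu
miR-22-3p: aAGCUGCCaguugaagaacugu

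NORAD is known for its repeated PUMILIO motifs. In its GENCODE v29 transcript of 5339 nt, the motif TGTANATA, searched on the sense strand only, occurred 15 times, or 2.81 times per kb. Among GENCODE lncRNA transcripts within 1000 nt of that length, 547 in all, 200 (36.6%) held at least 1 match and 3, NORAD included, held 15 or more. For each of the other genes only the longest GENCODE v29 transcript was searched. NEAT1's long form held 6 matches (0.26 per kb) and the MIR17HG transcript 2 (0.7 per kb). The transcripts searched for the other 5 genes held none. In NORAD 3 pairs of motifs start 9 nt apart, and these are printed with the motifs in capitals and positions counted from the transcript's 5′ end.
NORAD 1436 to 1464: tatctgTGTATATAgTGTACATAaaggac
NORAD 2633 to 2661: ctatacTGTATATAtTGTATATAtaacgg
NORAD 3269 to 3297: gtgctgTGTATATAgTGTATATAagcgga

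MALAT1 and the long form of NEAT1 are not protected by a poly(A) tail but by a triple helix at the 3′ end, in which U-rich stretches pair with an A-rich stretch. In the last 500 nt of their GENCODE v29 transcripts, the 2 RNAs shared 3 runs of at least 10 nt. The longest, 16 nt with the first U-rich stretch, and the next, 11 nt with the A-rich stretch, stand in the same order in both, and they are in capitals below. Between them lie 25 nt in MALAT1 and 30 nt in NEAT1. In NEAT1 the element is the very end of the 22743 nt transcript. In MALAT1 the annotated transcript of 8708 nt runs on for 353 nt, which covers the small mascRNA that is cleaved off.
MALAT1 8304 to 8355: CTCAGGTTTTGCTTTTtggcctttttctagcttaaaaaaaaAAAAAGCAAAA
NEAT1 22687 to 22743: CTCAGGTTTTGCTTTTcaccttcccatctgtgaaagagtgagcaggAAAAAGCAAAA

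The libraries held 16589153 to 20842099 counts, and levels are given as CPM, counts per 1000000 of the TMM-scaled library size. Of the labelled cell's 8 markers, SOX10 and MITF were expressed at 178 ± 19.1 and 59.2 ± 2.56 CPM in DMSO (SD, n = 2), PMEL and MLANA were under 3 CPM, and DCT and TYR did not pass the filter, so the pigmentation markers were at or near 0. The summed level of the 8 markers was 232 to 259 CPM in DMSO, 290 to 316 with palbociclib and 212 to 264 with GSK3326595. The blood cell markers PTPRC, CD3E and HBB were under the filter. Together the 7 blood markers, mostly CD68, summed to 70.8 to 96.8 CPM over all libraries. The 6 epithelial markers, mostly KRT8, summed to 201 to 230 CPM and the 6 of fibroblasts and endothelium to 20.3 to 33.0 CPM over all libraries, with EPCAM, CDH1, COL3A1 and DCN under the filter. Single markers moved with palbociclib within these sums: KRT14 from 2.05 to 7.43 CPM, DSP from 39.4 to 66.6, KDR from 0.245 to 3.18, LYZ from 4.58 to 13.8, S100B from 3.40 to 10.8 and S100A1 from 2.39 to 5.32 CPM were higher, and KRT8, CD68, PDGFRB and PECAM1 lower (edgeR adjusted p from 3.15e-05 to 0.0401). With GSK3326595, MITF rose from 59.2 to 83.0 CPM and KDR from 0.245 to 1.40 CPM. CD68 fell with it from 85.5 to 63.7 CPM (edgeR adjusted p from 0.00324 to 0.00728 for these genes). The part of these levels in the results below was not tested.

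With palbociclib, MIR17HG fell to 0.363 of its DMSO level and MIR22HG rose 2.05-fold, while the other 6 genes did not pass the test. With GSK3326595, NEAT1 fell to 0.586 of its DMSO level and the other 7 did not pass the test. The threshold was an adjusted p of 0.05 in edgeR's quasi-likelihood test, with Benjamini-Hochberg adjustment over all genes tested. Against DMSO, palbociclib had 1 member called higher, where 19.3% of all genes were called higher, and 1 called lower, where 20.2% were (39.5% in both directions). GSK3326595 had 0 members called higher, where 8.58% of all genes were, and 1 called lower, where 10.2% were (18.8% in both directions). DESeq2 also called 0 higher with GSK3326595, and at an unadjusted p under 0.05 edgeR had 1 higher, DANCR. The median log2 fold change of the 8 was 0.12 with palbociclib and 0.06 with GSK3326595, beside -0.02 and 0.00 over all genes tested. The share of all genes called in a direction is the background against which these counts stand. In these bulk libraries, fewer cells that hold a transcript and less of it per cell cannot be told apart.

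**Figure D1:**
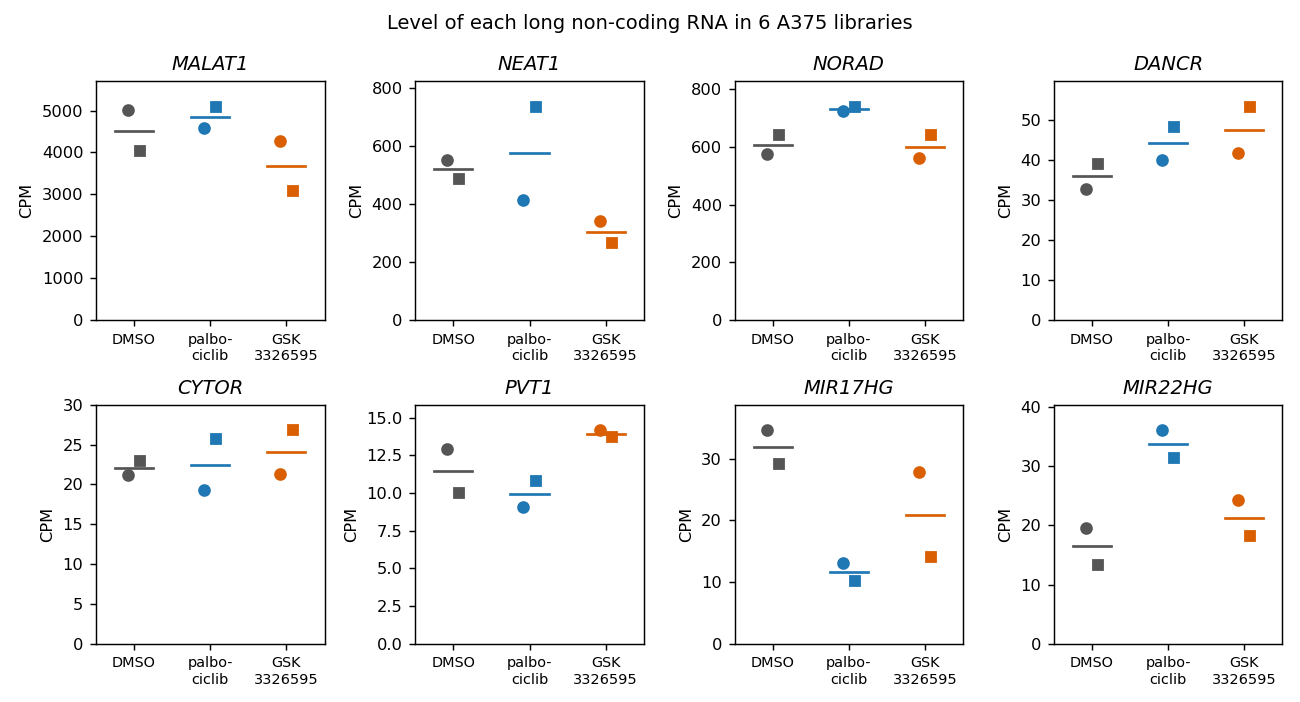
Level of each of the 8 long non-coding RNAs (vertical axis, CPM from 0, a separate scale for each gene) in DMSO, palbociclib and GSK3326595. Circles are replicate 1, squares are replicate 2 and bars are the mean of 2 libraries. Both palbociclib libraries lie above both DMSO libraries for MIR22HG and below them for MIR17HG, and the 2 palbociclib libraries of NEAT1 lie apart, at 413 and 736 CPM.

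MALAT1 (Gene ID 378938; GRCh38 chromosome 11, 65497738 to 65506516) took 0.295% to 0.513% of all counts of a library, and 7 of the tested genes had a higher mean CPM. It made up 74.8% to 80.5% of the counts of the 8 genes, which together took from 0.394% (95% interval 0.391% to 0.397%, exact binomial) of GSK3326595 replicate 2 to 0.669% (0.665% to 0.672%) of palbociclib replicate 2. These intervals cover counting error only. Per kb of annotated span, MALAT1 stood at 515 ± 79.8 CPM and NORAD, like MALAT1 annotated as nearly unspliced, at 114 ± 8.39 CPM in DMSO (SD, n = 2).

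MALAT1 was at 5018 and 4028 CPM in the DMSO libraries, at 4583 and 5093 CPM with palbociclib and at 4263 and 3078 CPM with GSK3326595. The palbociclib values lay within or just above the DMSO range, and 1 of the 2 GSK3326595 libraries was below it. The log2 fold change was 0.10 ± 0.177 with palbociclib (SE, edgeR adjusted p = 0.693; 95% interval -0.29 to 0.48) and -0.30 ± 0.177 with GSK3326595 (adjusted p = 0.262; -0.69 to 0.08). Without GSK3326595 replicate 1 the second value was -0.55 and passed the test (edgeR adjusted p = 0.025). MALAT1 overlaps its antisense transcript TALAM1 and the mascRNA, which have no rows of their own in the tables. Since the strand setting of the counting is not given in the sources used here, sense and antisense reads cannot be told apart.

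NEAT1 (Gene ID 283131; chromosome 11, 65422798 to 65445540) lies upstream of MALAT1 on the same chromosome arm. It was at 551.8 and 487.3 CPM in DMSO, at 413 and 736 CPM with palbociclib and at 342 and 267 CPM with GSK3326595. Both GSK3326595 libraries were below both DMSO libraries, while the palbociclib libraries lay on either side of them. NEAT1 was lower with GSK3326595, at a log2 fold change of -0.77 ± 0.208 (edgeR adjusted p = 0.0236), but missed the threshold without DMSO replicate 1 (0.0715), without GSK3326595 replicate 2 (0.0586) and with DESeq2 (0.148). With palbociclib the log2 fold change was 0.15 ± 0.206 (edgeR adjusted p = 0.606), and it depended on the library: 0.51 without palbociclib replicate 1 (adjusted p = 0.0347) and -0.33 without replicate 2 (0.165). The 2 palbociclib libraries differed 1.78-fold in NEAT1, a gap that exceeded those of 99.9% of the 10147 genes at 10 CPM or more.

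The table also has a row for MIR612, a microRNA hairpin of 100 bp inside NEAT1 (chromosome 11, 65444458 to 65444557), 21.7 kb after its start. Of 8 GENCODE v29 transcripts of NEAT1, 1 covers this position, the long form that builds paraspeckles, and the others end by 65426513. Reads of that row can therefore come from the long form, and are no measure of the mature microRNA. The row was at 26.1 and 21.2 CPM in DMSO, 17.9 and 46.2 CPM with palbociclib and 18.7 and 15.6 CPM with GSK3326595. The library with the most NEAT1, palbociclib replicate 2, also had the most MIR612, and both GSK3326595 libraries were below both DMSO libraries. Per 100 NEAT1 counts there were 4.73 and 4.36 MIR612 counts in DMSO, 4.33 and 6.28 with palbociclib and 5.47 and 5.83 with GSK3326595. The MIR612 row itself did not pass the test in either inhibitor against DMSO (log2 fold change 0.44 ± 0.304, edgeR adjusted p = 0.269, with palbociclib; -0.47 ± 0.320, adjusted p = 0.341, with GSK3326595). Without palbociclib replicate 1 both passed, at 0.97 (edgeR adjusted p = 0.000649) and -0.47 (0.0433). Whether its reads were also counted as NEAT1 is not given in the sources used here.

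**Figure D2:**
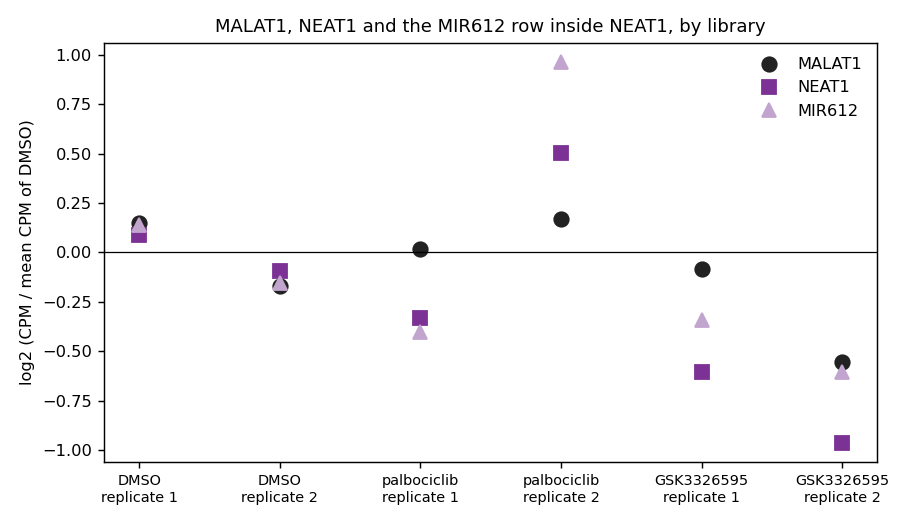
Level of MALAT1 (circles), NEAT1 (squares) and the MIR612 row inside NEAT1 (triangles) in each of the 6 libraries, as log2 of the CPM over the mean CPM of the 2 DMSO libraries. NEAT1 and MIR612 stand highest in palbociclib replicate 2, and NEAT1 is below 0 in both GSK3326595 libraries.

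Over the 6 libraries, log2 CPM of MALAT1 and NEAT1 had a Pearson correlation of 0.84, a description over 6 points that share 3 treatments and their depth. The ratio of MALAT1 to NEAT1 counts was 9.09 and 8.27 in DMSO, 11.1 and 6.92 with palbociclib and 12.5 and 11.5 with GSK3326595. FRMD8, the protein-coding gene 9272 bp before NEAT1, rose with palbociclib from 77.1 to 144.9 CPM (log2 fold change 0.91 ± 0.0789, edgeR adjusted p = 3.89e-06) and was at 0.08 ± 0.0798 with GSK3326595 (adjusted p = 0.507).

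The mRNAs of proteins that share a body with these RNAs were read from the same libraries. Protein levels were not measured. Of 16 genes of paraspeckle proteins, 13 fell with palbociclib and 0 rose, where 20.2% of all genes fell and 19.3% rose. Their median log2 fold change was -0.53, beside -0.02 over all genes. DESeq2 and an unadjusted p under 0.05 in edgeR also gave 0 rises in this list and in the 2 protein lists that follow. SFPQ, which encodes a core paraspeckle protein that stabilises NEAT1, went from 484 ± 18.2 to 257 ± 5.18 CPM (SD, n = 2). Its log2 fold change was -0.91 ± 0.0879 (edgeR adjusted p = 9.19e-06). NUDT21, a subunit of the cleavage factor that decides between the 2 forms of NEAT1, fell by 0.86 and the RNA-binding protein gene HNRNPH3 by 0.85 on the log2 scale. NONO, the partner of SFPQ, did not pass the test, at 442 ± 18.1 and 401 ± 19.8 CPM. With GSK3326595 3 of the 16 fell and 0 rose (median -0.16), where 10.2% of all genes fell and 8.58% rose. The 3 were TAF15, an RNA-binding protein gene, its relative EWSR1 and the cleavage factor subunit CPSF6. TAF15 went from 99.5 ± 0.441 to 47.7 ± 0.146 CPM (-1.06 ± 0.0954, edgeR adjusted p = 3.98e-05). EWSR1 was at -0.31 ± 0.0813 (edgeR adjusted p = 0.0205) and CPSF6 at -0.28 ± 0.0799 (0.0322). The count of 3 became 1 without DMSO replicate 2, palbociclib replicate 1, palbociclib replicate 2 or GSK3326595 replicate 1. The call of EWSR1 was also lost without DMSO replicate 1 (0.0507), and that of CPSF6 without any 1 of the 6 libraries (edgeR adjusted p 0.0541 to 0.193) and with DESeq2 (0.061), without the filter on low counts (0.0582) and in a fit of the 2 groups alone (0.0714).

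Of 13 genes of nuclear speckle proteins, 8 fell with palbociclib and 0 rose, where 20.2% of all genes fell and 19.3% rose. Their median was -0.39, beside -0.02 over all genes. The most firmly called were the splicing factors SRSF2 (-0.74 ± 0.0895), SRSF7 (-0.67 ± 0.0841) and SRSF3 (-0.67 ± 0.0911; edgeR adjusted p = 0.000128). The speckle scaffold genes SON and SRRM2 did not pass the test, at -0.17 ± 0.0872 and -0.03 ± 0.101. With GSK3326595 none of the 13 was called by DESeq2 or in the edgeR fit used here, which called 18.8% of all genes. At an unadjusted p under 0.05 in edgeR, 1 was higher and 0 were lower, and the median was 0.00.

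NORAD (Gene ID 647979; chromosome 20, 36045618 to 36050960) was at 576 and 639.8 CPM in DMSO, 724 and 739.8 CPM with palbociclib and 561 and 642 CPM with GSK3326595. Both palbociclib libraries were above all other libraries, and the GSK3326595 libraries overlapped the DMSO libraries. The log2 fold change with palbociclib was 0.27 ± 0.105, just outside the threshold (SE, edgeR adjusted p = 0.0609; 95% interval 0.04 to 0.50). It passed with DESeq2 (adjusted p = 0.0284), with library totals in place of TMM (0.0116), with a filter at 1 CPM (0.0468), in a fit of the 2 groups alone (0.0327) and without GSK3326595 replicate 1 (0.0362) or 2 (0.0309), and had adjusted p-values of 0.0669 to 0.327 without any 1 of the DMSO and palbociclib libraries. With GSK3326595 it was -0.02 ± 0.105 (edgeR adjusted p = 0.937; -0.24 to 0.21).

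Of 8 genes of proteins bound by NORAD, 5 fell with palbociclib and 0 rose (median -0.53), where 20.2% of all genes fell and 19.3% rose. With GSK3326595 none was called by DESeq2 or in the edgeR fit used here, which called 18.8% of all genes. The median was -0.09, and 2 were lower at an unadjusted p under 0.05 in edgeR. With library totals in place of TMM, 1 of the 8 was called lower with GSK3326595, RBMX (-0.23, edgeR adjusted p = 0.0345). RBMX encodes an RNA-binding protein that NORAD binds in the nucleus. Its mRNA was at 344 ± 20.8 CPM with DMSO and at 179.8 ± 0.456 CPM with palbociclib (SD, n = 2). It fell by 0.94 on the log2 scale (SE 0.0865, edgeR adjusted p = 6.44e-06). PUM2, which binds the motifs printed above, fell by 0.58 and the splicing protein gene CDC5L by 0.61 on the log2 scale. Of the neighbours of NORAD, SCAND1 was higher with both inhibitors (0.58 ± 0.0941 and 0.57 ± 0.0944, edgeR adjusted p = 0.000459 and 0.00172).

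MIR17HG (Gene ID 407975; chromosome 13, 91347687 to 91354577) was at 34.6 and 29.2 CPM in DMSO, 13.1 and 10.1 CPM with palbociclib and 27.9 and 13.98 CPM with GSK3326595. All 4 treated libraries were below both DMSO libraries, the palbociclib libraries by more. The lowest count behind these values was 210, for which counting error alone is 6.9% of the value. With palbociclib the log2 fold change was -1.46 ± 0.245 (SE, edgeR adjusted p = 0.000594), and the gene was called in all 13 alternatives (-1.65 to -1.28, adjusted p 1.43e-14 to 0.00661). With GSK3326595 it was -0.61 ± 0.236 (edgeR adjusted p = 0.0945; 95% interval -1.12 to -0.09), and the 2 libraries differed: -1.19 without replicate 1 (adjusted p = 4.7e-05) and -0.19 without replicate 2 (0.463). Replicate 2 held 0.504 of the level of replicate 1, a gap larger than that of 99.9% of genes at 10 CPM or more.

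The rows of the 6 hairpins inside MIR17HG were at 0 in all 6 libraries (MIR17, MIR18A, MIR19A, MIR20A, MIR19B1 and MIR92A1). So was the row of MIR22 inside MIR22HG. If reads over the hairpins were assigned to these rows, a 0 allows up to 3 counts, or 0.144 to 0.175 CPM, per library. Whether they were is not given in the sources used here, so a 0 may also come from the counting rule. Mature microRNAs are too short for this kind of library, so the host transcripts are not a measure of them. Of 5 genes of MYC and E2F factors, E2F2 and E2F1, activators of the G1 to S transition, fell with both inhibitors. The log2 fold changes were -2.31 and -1.599 with palbociclib and -1.23 and -1.04 with GSK3326595 (edgeR adjusted p between 1.17e-06 and 0.000635). Of all genes, 20.2% fell with palbociclib and 10.2% with GSK3326595. MYC was at 16.9 ± 0.0156 CPM in DMSO, 17.6 ± 1.78 with palbociclib and 20.5 ± 0.503 with GSK3326595 (SD, n = 2) and did not pass the test in either comparison (0.06 ± 0.119, adjusted p = 0.716; 0.28 ± 0.119, 0.126), nor did MAX and E2F3.

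Among 12 well studied target mRNAs of the microRNAs printed above, 5 rose and 2 fell with palbociclib (median 0.05), where 19.3% of all genes rose and 20.2% fell. With GSK3326595 4 rose and 1 fell (median 0.02), where 8.58% rose and 10.2% fell. CDKN1A, which encodes the CDK inhibitor p21 and is also a p53 target, was the most firmly called, from 145 ± 2.35 CPM in DMSO to 379 ± 26.6 with palbociclib and 509 ± 95.2 with GSK3326595 (SD, n = 2; log2 fold change 1.39 ± 0.122 and 1.81 ± 0.123, edgeR adjusted p = 4.22e-06 and 1.36e-05). TGFBR2, a TGF-beta receptor, rose with both (0.74 ± 0.0950 and 0.58 ± 0.0951), as did the transcription factor gene STAT3 (0.48 ± 0.0855 and 0.32 ± 0.0858) and THBS1, a secreted matrix protein gene (0.52 ± 0.141 and 0.97 ± 0.142). STAT3 missed the threshold with GSK3326595 without DMSO replicate 1 (edgeR adjusted p = 0.101), DMSO replicate 2 (0.123) or GSK3326595 replicate 2 (0.143), and THBS1 with palbociclib without DMSO replicate 1 (0.12) or palbociclib replicate 2 (0.117). The 2 that fell with palbociclib were the pro-apoptotic BCL2L11 (-0.98 ± 0.147) and SMAD4 (-0.56 ± 0.0789), a mediator of TGF-beta signals. BCL2L11 was also the 1 lower gene with GSK3326595 (-0.46 ± 0.144, edgeR adjusted p = 0.0451), a call lost in 8 of the alternatives, among them leaving out DMSO replicate 1 (0.114), DMSO replicate 2 (0.128) or GSK3326595 replicate 2 (0.159).

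MIR22HG (Gene ID 84981; chromosome 17, 1711504 to 1716210) was at 19.5 and 13.4 CPM in DMSO, 36.1 and 31.3 CPM with palbociclib and 24.4 and 18.2 CPM with GSK3326595. Both palbociclib libraries were above all others, and the GSK3326595 libraries overlapped those of DMSO. The log2 fold change was 1.04 ± 0.175 with palbociclib (SE, edgeR adjusted p = 0.000631), and the gene was called in all 13 alternatives (0.81 to 1.33, adjusted p 3.02e-12 to 0.00545). With GSK3326595 it was 0.37 ± 0.181 (edgeR adjusted p = 0.175; 95% interval -0.02 to 0.77), and it passed without DMSO replicate 1 (0.64, adjusted p = 0.037) or GSK3326595 replicate 2 (0.57, 0.0367). The protein-coding genes on both sides also rose with palbociclib. TLCD2, 1126 bp away, went from 15.4 to 37.2 CPM (1.28 ± 0.143, edgeR adjusted p = 2.98e-05), and WDR81, 312 bp away on the other side, from 71.5 to 100.3 CPM (0.49 ± 0.0940, adjusted p = 0.00154). With GSK3326595 they were at -0.25 ± 0.154 and 0.27 ± 0.0947 and did not pass.

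**Figure D3:**
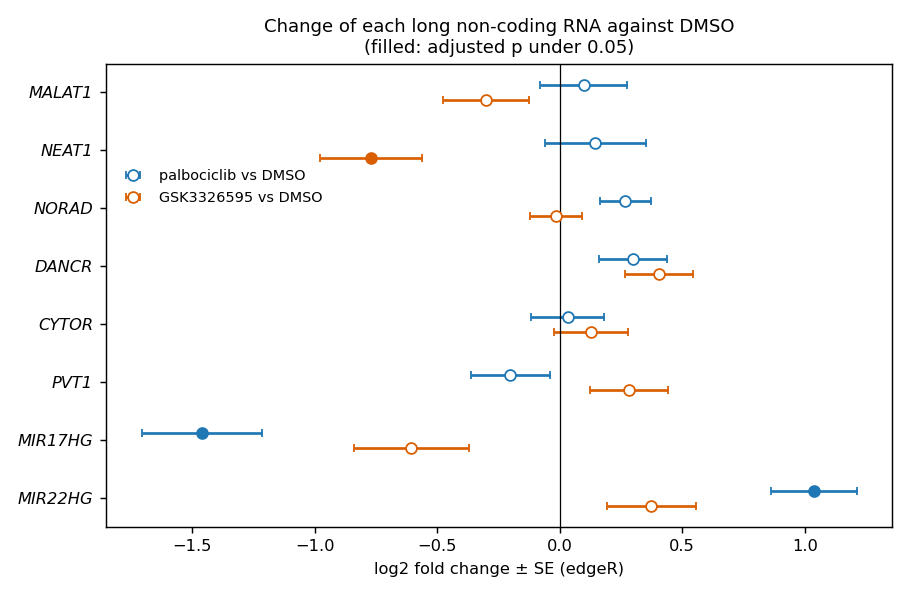
Log2 fold change against DMSO (horizontal axis, edgeR, bars are ± SE) of each of the 8 long non-coding RNAs with palbociclib (blue) and GSK3326595 (orange), filled where the adjusted p is under 0.05. The filled points are MIR22HG at 1.04 and MIR17HG at -1.46 with palbociclib, and NEAT1 at -0.77 with GSK3326595.

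PVT1 (Gene ID 5820; chromosome 8, 127794524 to 128101256) was at 12.9 and 9.995 CPM in DMSO, 9.09 and 10.8 CPM with palbociclib and 14.2 and 13.7 CPM with GSK3326595. The GSK3326595 libraries were the 2 highest, and the palbociclib libraries overlapped those of DMSO. Neither difference from DMSO passed the test: -0.20 ± 0.163 with palbociclib (SE, edgeR adjusted p = 0.348; 95% interval -0.56 to 0.15) and 0.28 ± 0.160 with GSK3326595 (0.247; -0.07 to 0.63). PVT1 rests on 179 to 243 counts per library, and counting error alone is 7.47% at the lowest. Its neighbour MYC, 51572 bp before it, is described above, and its log2 fold changes were 0.06 and 0.28.

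DANCR (Gene ID 57291; chromosome 4, 52712394 to 52720697) was at 32.7 and 39.2 CPM in DMSO, 40.1 and 48.3 CPM with palbociclib and 41.9 and 53.4 CPM with GSK3326595. All 4 treated libraries were above both DMSO libraries, by a margin smaller than the gap between replicates. The log2 fold change was 0.30 ± 0.139 with palbociclib (SE, edgeR adjusted p = 0.107; 95% interval -0.004 to 0.60) and 0.41 ± 0.140 with GSK3326595 (0.0633; 0.10 to 0.71). The first passed in a fit of the 2 groups alone (0.0458) and without GSK3326595 replicate 1 (0.0368) or 2 (0.0404), the second without GSK3326595 replicate 1 (0.57, edgeR adjusted p = 0.00649). SNORA26, a small nucleolar RNA inside DANCR, had 140 counts in all and did not pass in either comparison. The 3 protein-coding genes whose log2 CPM followed DANCR most closely over the 6 libraries were RPS27A (Pearson r 0.9987), IGFBP4 and RPL38 (0.9942), of which RPS27A and RPL38 encode ribosomal proteins. They were picked from 9855 genes for that likeness, over 6 points that share treatments and depth.

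CYTOR (Gene ID 112597; chromosome 2, 87455427 to 87521518) was at 21.1 and 22.9 CPM in DMSO, 19.3 and 25.7 CPM with palbociclib and 21.3 and 26.8 CPM with GSK3326595. The groups overlapped throughout. The log2 fold change was 0.03 ± 0.15 with palbociclib (SE, edgeR adjusted p = 0.886; 95% interval -0.30 to 0.36) and 0.13 ± 0.151 with GSK3326595 (0.604; -0.20 to 0.46). CYTOR has a copy on the same chromosome, MIR4435-2HG, that is near-identical over part of its length. In GENCODE v29, 37 of 38 CYTOR transcripts share at least 100 nt at 95% identity or more with MIR4435-2HG. The best-scoring alignment was 99.2% identical over 2254 nt, between a CYTOR transcript of 7512 nt and a MIR4435-2HG transcript of 3565 nt. How the authors' counting treated reads that align to both is not given in the sources used here, so the split between them is uncertain. Counted as 1 gene, they were at 50.03 ± 2.36 CPM in DMSO, 51.1 ± 5.07 with palbociclib and 57.0 ± 5.17 with GSK3326595 (SD, n = 2), and neither difference passed the test (0.03, edgeR adjusted p = 0.836; 0.19, 0.237).

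The direct comparison of the 2 inhibitors asked which of the 8 differed between them. NEAT1 and MIR22HG were higher with palbociclib than with GSK3326595, where 16.6% of all genes were called higher, and PVT1 and MIR17HG were lower, where 18.2% were (34.8% in both directions). NEAT1 had the largest difference, 0.92 ± 0.208 on the log2 scale (SE, edgeR adjusted p = 0.0051), with 413 and 736 CPM against 342 and 267 CPM, and it was lost without palbociclib replicate 2 (0.44, adjusted p = 0.0664). MIR22HG differed by 0.66 ± 0.172 (edgeR adjusted p = 0.0108), lost without palbociclib replicate 1 (0.0745). MIR17HG was at -0.86 ± 0.251 (0.0197), lost with DESeq2 (0.129), without palbociclib replicate 2 (0.125) and without GSK3326595 replicate 1 (-0.26, edgeR adjusted p = 0.276). PVT1 was at -0.48 ± 0.161 (0.0355), lost with DESeq2 (0.0775), with library totals (0.0677) and without any 1 of the 4 libraries of these groups (0.0516 to 0.24, edgeR). NORAD (0.28 ± 0.105, edgeR adjusted p = 0.0537) and MALAT1 (0.40 ± 0.177, 0.101) did not pass the edgeR test. Both passed with DESeq2 (0.0246 and 0.0139). DANCR (-0.11 ± 0.138) and CYTOR (-0.10 ± 0.15) overlapped between the inhibitors.

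Of 42 other long non-coding RNAs listed, 34 passed the filter on low counts. With palbociclib 9 of them rose and 7 fell (median -0.08), where 19.3% of all genes rose and 20.2% fell. With GSK3326595 4 rose and 10 fell (median -0.13), where 8.58% of all genes rose and 10.2% fell. UCA1, an oncogenic RNA first described in bladder cancer, rose from 28.3 ± 1.704 CPM to 68.7 ± 8.71 with palbociclib and 49.3 ± 9.99 with GSK3326595 (SD, n = 2; 1.28 ± 0.139 and 0.80 ± 0.140, edgeR adjusted p = 2.29e-05 and 0.00233). PCAT6 rose with palbociclib from 0.186 to 1.21 CPM (2.64 ± 0.501, edgeR adjusted p = 0.00137). It rests on 2 and 5 counts in the DMSO libraries and 22 and 27 with palbociclib. LINC00511 rose with palbociclib from 2.18 to 5.02 CPM (1.20 ± 0.233, edgeR adjusted p = 0.0016). HOTAIRM1, from the HOXA cluster, and PURPL, a p53-responsive RNA, rose with GSK3326595 by 0.90 and 0.93 on the log2 scale, PURPL not so without DMSO replicate 2 (edgeR adjusted p = 0.118). HOTAIRM1 was also called higher with palbociclib (0.56 ± 0.181, edgeR adjusted p = 0.0273), a call lost with DESeq2 (0.0733) and without any 1 of the 4 libraries compared (0.0684 to 0.135).

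DLEU2 and MIR100HG, both microRNA hosts, were among the RNAs that fell. DLEU2, host of miR-15a and miR-16-1, fell from 11.7 ± 1.22 CPM to 3.11 ± 0.123 with palbociclib and 5.27 ± 0.373 with GSK3326595 (SD, n = 2; -1.91 ± 0.185 and -1.15 ± 0.177, edgeR adjusted p = 9.5e-06 and 0.00103). MIR100HG, host of miR-100, fell from 182 ± 23.7 CPM to 102 ± 7.29 and 105 ± 13.7 CPM. CRNDE and OIP5-AS1 also fell with both inhibitors, CRNDE by 1.78 with palbociclib and 0.89 with GSK3326595 and OIP5-AS1 by 0.66 and 0.96 on the log2 scale. CRNDE missed the threshold with GSK3326595 without DMSO replicate 2 (edgeR adjusted p = 0.081) or GSK3326595 replicate 2 (0.0916). OIP5-AS1 and DLEU2 overlap genes on the other strand, and without the strand setting their reads cannot be told apart from those of their partners. Of the rises with palbociclib, leaving out DMSO replicate 2 or palbociclib replicate 2 left a count of 5, and leaving out palbociclib replicate 1 a count of 4. With GSK3326595, the rises numbered 2 when DMSO replicate 2 was left out, and the falls 6 when DMSO replicate 1 was.

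Of the 6 listed p53-responsive non-coding RNAs, which are part of the 42, 3 passed the filter. Palbociclib had 2 of them called higher and 1 lower, where 19.3% of all genes rose and 20.2% fell. GSK3326595 had 1 called higher and 1 lower, where 8.58% of all genes rose and 10.2% fell. With palbociclib PURPL (0.78 ± 0.230, edgeR adjusted p = 0.0181) and TP53TG1 (0.85 ± 0.302, 0.0407) were called higher and LINC-PINT lower (-0.58 ± 0.168, 0.0164). Each of these 3 calls was lost without at least 1 of the libraries, TP53TG1 without any 1 of the 4 compared (0.0674 to 0.226), PURPL without DMSO replicate 2 (0.143), palbociclib replicate 1 (0.079) or 2 (0.0654) and LINC-PINT without DMSO replicate 1 (0.193), palbociclib replicate 1 (0.0543) or 2 (0.0753). With GSK3326595 PURPL was called higher (0.93 ± 0.231, edgeR adjusted p = 0.0163) and LINC-PINT lower (-0.58 ± 0.170, 0.0344). The PURPL call was lost without DMSO replicate 2 (log2 fold change 0.64). The LINC-PINT call was lost with library totals in place of TMM (edgeR adjusted p = 0.0749). It was also lost without DMSO replicate 1 (log2 fold change -0.29) or GSK3326595 replicate 2 (-0.41).

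**Figure D4:**
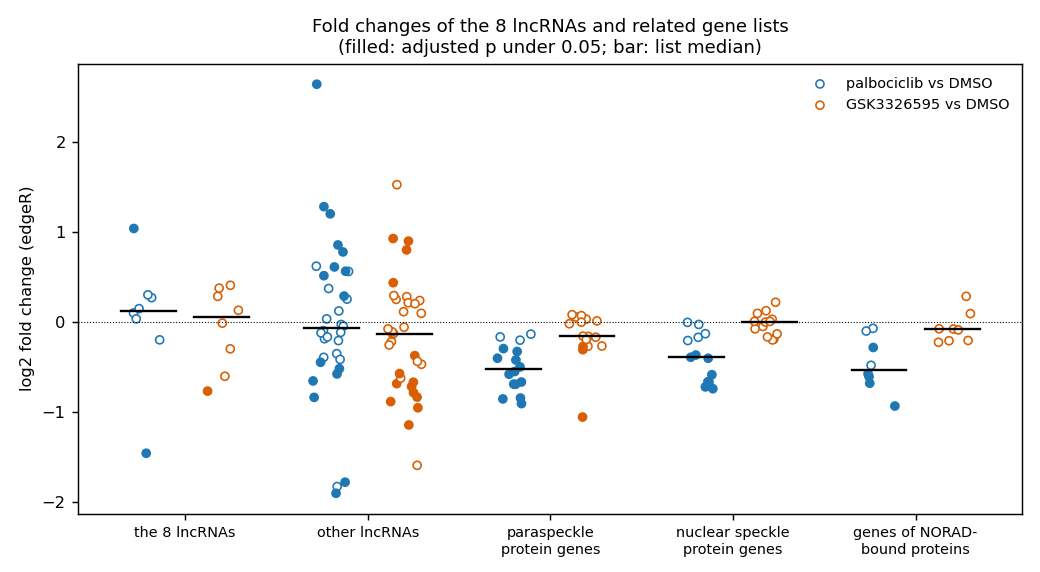
Log2 fold change against DMSO (vertical axis, edgeR) of the 8 long non-coding RNAs, the 34 other long non-coding RNAs tested, and the genes of paraspeckle, nuclear speckle and NORAD-bound proteins, with palbociclib (blue) and GSK3326595 (orange). Filled points have an adjusted p under 0.05 and bars are list medians. The medians of the 3 protein lists with palbociclib lie at -0.53, -0.39 and -0.53, and that of the 8 RNAs at 0.12.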

How the data were processed

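RNA-seq of A375 cells was analysed in 3 groups of 2 libraries. The authors deposited raw read counts per NCBI Gene ID, 1 table per library, without normalization. Per the submitters' processing notes, CASAVA 1.8.2, cutadapt 1.7, HISAT2, featureCounts 1.6.2 and limma were used with hg38. Per the labels' protocols, ribosomal RNA was depleted and libraries followed the TruSeq RNA v2 guide. The sources used here do not give the annotation, the strand setting or the treatment of reads with several alignments, which bears on overlapping and near-identical genes. Of 28395 IDs, 27745 matched a symbol in the RefSeq gene table (GRCh38.p14), and the 650 others held 0.233% to 0.508% of a library's counts. All stayed in the totals.

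Counts were tested in R 4.3.3 with edgeR 4.0.16: filterByExpr with a minimum count of 10 (16381 genes), TMM, glmQLFit on all 6 libraries with 1 coefficient per group (3 residual degrees of freedom) and two-sided glmQLFTest, with Benjamini-Hochberg adjustment over all genes tested. SE is the absolute log2 fold change over the square root of F. The script was tested on simulated data. Replicates differed by more than counting noise (chi-square per degree of freedom 5.38 to 10.2), so none was merged. Alternatives were DESeq2 1.42.0, its size factors in edgeR, library totals, other filters, the 2 compared groups alone, a replicate block and leaving out each library. CYTOR merged with MIR4435-2HG, and NEAT1 with MIR612 added, were alternatives chosen after seeing the data. Transcript sequences came from GENCODE v29, microRNAs from RefSeq, and copies were aligned with blastn 2.17.0.

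The members and all gene lists were chosen with earlier results of these data known. Named genes are all 8 members, the 3 called genes of smallest p per direction in each list, MYC, the overlapping and closest tested coding genes of a member, and the 3 coding genes most correlated with a member. A few list members that did not pass the test were named after their values were seen. A few genes that this rule names are not reported here.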

Additional observations from a re-analysis of the deposited data

How the results depend on the processing

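MIR22HG and MIR17HG against DMSO with palbociclib were called under all 13 alternatives, and no called value changed sign. Of the 8 members, the number called higher with palbociclib against DMSO was 1 and became 2 with DESeq2, with library totals and with a filter at 1 CPM, and 3 in a fit of the 2 groups alone. The number called lower with GSK3326595 against DMSO was 1 and became 0 with DESeq2. Between the inhibitors, DESeq2 called 4 higher and 0 lower with palbociclib, and library totals left 1 lower. Leaving out each library in turn, the genes called ranged from 4007 to 7259 with palbociclib, 1765 to 3230 with GSK3326595 and 3312 to 5542 between them. The members called higher ranged from 1 to 3, 0 to 1 and 1 to 3 in these 3 comparisons, and those called lower from 1 to 1, 0 to 3 and 0 to 2. In such a fit the lone library of a group is assumed to vary like the other groups. The replicate numbers are shared between groups, but the labels do not say what they mark. Deviations of same-numbered libraries correlated at 0.18 (DMSO and palbociclib), 0.34 (DMSO and GSK3326595) and 0.14 (the inhibitors), over 2 libraries per group. With a replicate block, the members called higher were 3, 2 and 4 in the 3 comparisons, those called lower with GSK3326595 against DMSO were 3, and the genes called in that comparison rose from 3081 to 5769. Besides the calls above, the block called NORAD (edgeR adjusted p = 0.0015) and DANCR (0.00217) higher with palbociclib, and with GSK3326595 DANCR (0.000139) and MIR22HG (0.00531) higher and MIR17HG (1.26e-05) and MALAT1 (0.0167) lower. It also called the MIR612 row in both (edgeR adjusted p = 0.0474 and 0.0398). With GSK3326595 it called 3 of 13 nuclear speckle and 3 of 8 NORAD-bound protein genes lower, and 7 of 16 paraspeckle genes. In that comparison the block called 5769 of 16381 genes in both directions, the background for these counts. Counting error at the lowest count was 7.47% for PVT1, 6.9% for MIR17HG and 6.24% for MIR22HG, and was below the variation between libraries that edgeR estimated for each (coefficients of variation 0.101, 0.165 and 0.119). With 2 libraries per group, the cause of these differences was not tested.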

Other observations

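The genes whose log2 CPM followed each member most closely over the 6 libraries, among 9855 protein-coding genes at 10 CPM or more, differed from member to member. For MIR22HG they were AP5Z1 (Pearson r 0.9957), ZSCAN18 and WDR37, which rose with palbociclib by 0.88, 1.20 and 0.58 on the log2 scale. For MIR17HG they were ZMYM1 (0.9938), C9orf72 and RFX3, which fell with palbociclib by 0.62, 0.65 and 0.43. For NORAD they were CANT1 (0.9971), TAF12 and KIF1C, of which KIF1C, a kinesin motor gene, rose with palbociclib (0.36, edgeR adjusted p = 0.0111). For MALAT1 they were ZNF251 (0.9876), RGL3 and SLC25A29, for NEAT1 STX1A (0.9789), COL13A1 and METTL8, for PVT1 CSTPP1 (0.9899), ARID3B and RAB20, and for CYTOR GNL1 (0.9734), DDI2 and THAP3. These are descriptions over 6 points, picked for their likeness.

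Between members, the most negative correlation over the 6 libraries was that of NORAD and MIR17HG (Pearson r -0.87). Gaps between replicates were large for some members: MIR22HG in DMSO (replicate 2 at 0.687 of replicate 1), MALAT1 with GSK3326595 (0.722) and CYTOR with palbociclib (1.33-fold) exceeded those of 99.1%, 97% and 98.5% of genes at 10 CPM or more in their group. Among the other neighbours, CYRIB was lower with palbociclib (-0.39 ± 0.09003, edgeR adjusted p = 0.00513). It is the closest tested coding gene after PVT1, but lies 1738336 bp away. Its call was lost without DMSO replicate 2 (log2 fold change -0.31) or palbociclib replicate 2 (-0.29). EPB41L1, after NORAD, was at 0.30 ± 0.0867 with palbociclib (edgeR adjusted p = 0.0149), lost when DMSO replicate 1 (0.0794), DMSO replicate 2 (0.0624) or palbociclib replicate 2 (0.156) was left out. USP46, before DANCR, was at -0.26 ± 0.0975 with palbociclib (edgeR adjusted p = 0.0485), lost without any 1 of the 4 libraries compared (0.086 to 0.249). The MIR1206 row inside PVT1, with 47 counts in all, was lower with palbociclib (-1.74 ± 0.538, edgeR adjusted p = 0.0224), lost without DMSO replicate 1 (0.129), palbociclib replicate 1 (0.165) or palbociclib replicate 2 (0.0802), and DESeq2 gave it no adjusted p.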
